A study of Mus musculus with 27 samples.

Results

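Muscle P1 and muscle P3 are 2 subpopulations of Prx1-tdTomato cells that were sorted from the skeletal muscle of mice and sequenced in bulk, with 3 libraries each, and they make up 6 of the 27 libraries of the series. P1 cells were sorted as CD45- CD105- CD200+, and P3 cells as CD45- CD105+ with CD200 variable, so the sort set CD105 apart between them, asked for CD200 in P1 alone and removed CD45+ cells from both. The libraries were chosen by the label of tissue and subpopulation, and all genes of the table entered the comparison. The study set the same subpopulations, together with a P2 fraction that carries neither CD105 nor CD200, side by side in bone marrow, periosteum and muscle, to ask whether Prx1 cells of different origin differ.

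The donors of the hindlimb tissue were Prx1-CreER/Ai14/Rag1 mice of both sexes, aged 8 to 12 weeks. Tamoxifen was given in 2 doses 48 h apart, and tissue was taken 3 days after the last dose, so a cell was red if it, or a cell it descended from, had used the Prx1 promoter while tamoxifen was active. The Rag1 null allele, which in homozygous form leaves mice without mature B and T cells, was shared by every group. The muscle lay around the femur, was freed of fat and tendon and was digested with collagenase. The labels do not say which mouse gave which library, or whether mice were pooled, so p-values measure the spread between these libraries.

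CD105 is the product of Eng, endoglin, a co-receptor for ligands of the TGF-beta and BMP family that is abundant on endothelial cells and present on some mesenchymal cells. CD200 is a surface glycoprotein that restrains myeloid cells and has been used to enrich skeletal stem cells. In muscle, the interstitial Prx1 lineage is mostly made of fibro-adipogenic progenitors, which are fibroblast-like cells that express Pdgfra and Ly6a, beside the fibroblasts around vessels, tendon and nerve. Muscle stem cells, called satellite cells, arise from another lineage and are defined by Pax7.

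Values are normalized counts, and fold changes are on the scale of log2(normalized count + 1), given as P1 minus P3, so that a negative value is higher in P3. The normalized counts of a library summed to between 10563364 and 12301029 in the 6 libraries. Between 16806 and 17869 genes were above 0 in a P1 library and between 19939 and 20300 in a P3 library. Replicates correlated at Pearson's r from 0.874 to 0.890 in P1 and from 0.919 to 0.930 in P3, and a P1 library with a P3 library at 0.794 to 0.845, across the 14075 genes tested, which are not independent replicates.

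The genes of the sort were examined first. Eng was at 178, 382 and 367 in P1 and 6067, 5621 and 4523 in P3 (log2 fold change -4.19 ± 0.32 (SE), adjusted p = 0.00144), and each P3 library lay above each P1 library. Cd200 was at 1025, 3274 and 2560.4 in P1 and 8339.8, 6525 and 6947 in P3. The transcript was thus lower in the cells gated for CD200 than in those where CD200 was not a criterion, again with no overlap (log2 fold change -1.82 ± 0.41 (SE), adjusted p = 0.0363). That call was lost in 5 of the 6 fits without 1 library (adjusted p from 0.0168 to 0.115) and held only without P1 replicate 2. Ptprc, which encodes CD45, stayed at 14.7, 14.8 and 5.69 in P1 and 26.1, 35.7 and 15.5 in P3 and was not called (-1.10 ± 0.63 (SE), adjusted p = 0.339). Prrx1, the gene called Prx1 in the strain's name, was at 1266, 1202 and 1313 in P1 and 712, 934 and 808 in P3 (0.63 ± 0.18 (SE), adjusted p = 0.0773). The single transgene entry of the table read 16555, 22120.2 and 19372 in P1 and 5387, 14708 and 15831 in P3. P3 replicate 1 stood lowest there, and the difference did not pass the test (0.83 ± 0.40 (SE), adjusted p = 0.26).

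**Figure D1:**
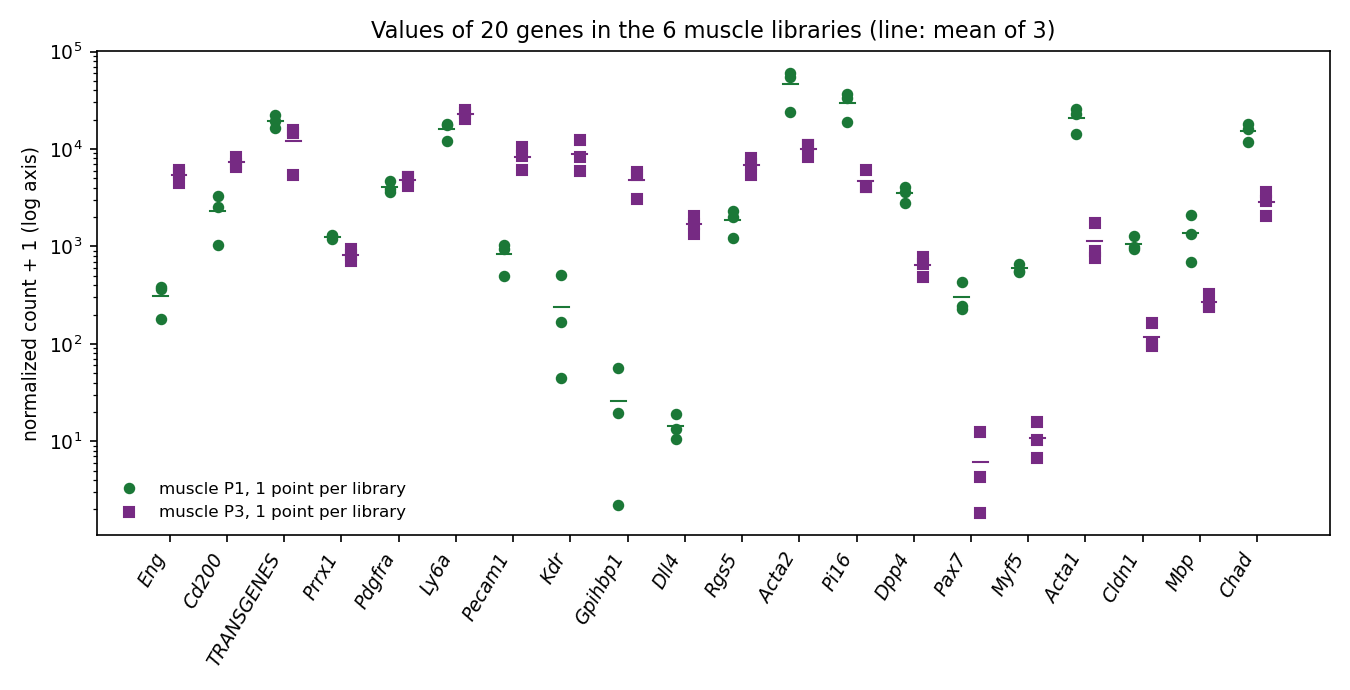
Normalized count plus 1 (log axis) of 20 genes in the 3 muscle P1 (green circles) and 3 muscle P3 (purple squares) libraries, with the mean of each group as a line. Eng, Cd200, Pecam1, Kdr, Gpihbp1, Dll4 and Rgs5 sit higher in every P3 library, Acta2 to Chad sit higher in every P1 library, and Pdgfra overlaps between the groups.

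Of 14075 genes tested with limma, 395 were differentially expressed genes (DEGs) higher in P1, 2.81% of those tested, and 517 were DEGs higher in P3, 3.67%. A DEG had an adjusted p below 0.05 and a log2 fold change above 1.5 in size. These shares of all genes are the background for the counts of every gene list below. In all 912 DEGs the P1 and P3 libraries did not overlap. Passing these thresholds with 3 libraries a side nearly requires that, so it is no separate support. Over all genes, the 3 P1 libraries lay above the 3 of P3 in 16% and below them in 14.8%. Large changes were more often on the P3 side: 264 DEGs higher in P3 and 153 higher in P1 exceeded a log2 fold change of 3. The counts depended on single libraries, since they were 221 and 259 without P3 replicate 1, 216 and 274 without P3 replicate 3, and 253 and 469 without P1 replicate 2. A fit that shared its spread over all 27 libraries, whose periosteal replicates correlated less (r from 0.592 to 0.765), called 25 and 70.

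**Figure D2:**
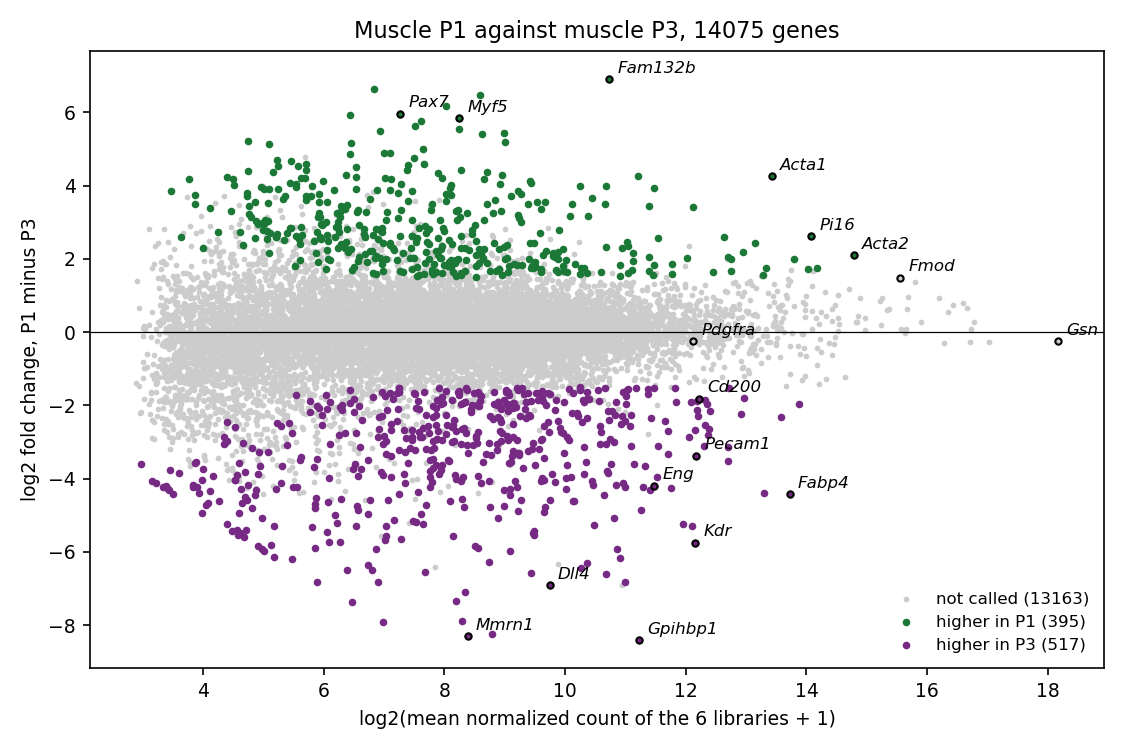
Log2 fold change (P1 minus P3) of 14075 genes against log2 of their mean normalized count plus 1 over the 6 libraries. The 395 DEGs higher in P1 (green) and the 517 higher in P3 (purple) spread over the whole range of levels, with Gpihbp1 and Mmrn1 at the bottom and Fam132b at the top, while Pdgfra and Gsn lie near 0.

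The DEGs with the largest folds and a mean of at least 100 in the higher group were of different kinds on the 2 sides. Among the 15 leading genes higher in P1 were Pax7, Myf5, Calcr and Fgfr4 of satellite cells, the sarcomere genes Myl3, Myl2 and Mybpc1, and Mb, which encodes myoglobin. Fam132b, the gene of the secreted protein erythroferrone (chr1:91366430-91374217, plus strand), led at 2229, 3091 and 4789.6 in P1 and 10.6, 22.9 and 66.1 in P3 (6.92 ± 0.63 (SE), adjusted p = 0.00189). Vgll2, a cofactor of TEAD factors in muscle, stood at 255, 255 and 160.5 in P1 and 2.73, 0 and 1.92 in P3 (6.63 ± 0.65 (SE), adjusted p = 0.00222). The others were Asb5, Gal, Csrp3, Tenm4 and Otoa, with log2 fold changes from 5.15 to 6.48. The calls of Asb5 and Csrp3 were lost in 2 and 4 of the 6 fits without 1 library.

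Among the 15 leading genes higher in P3, Gpihbp1 came first (chr15:75596628-75599481, plus strand). It encodes the protein that carries lipoprotein lipase to the wall of capillaries and was at 1.24, 18.7 and 55.3 in P1 and 5809.9, 3038 and 5455 in P3 (-8.40 ± 1.06 (SE), adjusted p = 0.00441). Mmrn1, the gene of multimerin 1, a protein of platelets and endothelium, was at 2.54, 1.04 and 0 in P1 and 998, 351 and 645 in P3 (-8.30 ± 0.65 (SE), adjusted p = 0.00147). Car4, a membrane-bound carbonic anhydrase of capillaries, was at 0.639, 7.79 and 0.567 in P1 and 1101, 585 and 946 in P3 (-8.23 ± 0.74 (SE), adjusted p = 0.00186). Nos2, Sh3tc2 and Cyp1a1 were listed at 0 in all 3 P1 libraries, so no fold is given. In P3, Nos2, the inducible nitric oxide synthase, was at 318, 161 and 271, Sh3tc2 at 228, 94.3 and 202, and Cyp1a1, a cytochrome P450, at 153, 88.4 and 107 (adjusted p = 0.00144, 0.00147 and 0.00158). Over all DEGs higher in P3, 24 were listed at 0 in every P1 library, and of those higher in P1, 0 were at 0 in every P3 library. The filter asked for a value of at least 10 in 3 libraries. Genes below 10 throughout P1, or throughout P3, passed it through the other group alone, so their p-values are no separate support. This holds for the genes at 0 throughout P1 and also, among others, for Mmrn1 and Car4. On the other side it holds for Vgll2, Myl3 and Calcr, which were below 10 throughout P3. Fewer genes were above 0 in P1 libraries than in P3 libraries, and depth in reads is unknown. Slc26a10, Prom1, Car7, Dll4, Aplnr, Kcne3, Aqp7, Myct1 and Gm4070 completed the set, with log2 fold changes from -7.89 to -6.56. Reads of Gm4070 can fall on near-identical copies, so its value is uncertain. The calls of Prom1 and Aplnr were lost in 5 and 4 of the 6 fits without 1 library.

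Sequence upstream of these leading genes was taken from RefSeq (GRCm38.p6), 250 bases before the start, and searched on both strands for E-boxes (CAGGTG and also CAGCTG), an ETS site (ACCGGAAGT), ATTGTT for SOX factors, TGACTCA for AP-1 and TATAAA, called the TATA box. An entry existed for 14 of the 15 genes higher in P1 and for 10 of the 15 higher in P3. CAGCTG was found for 3 of the 14, Myl2, Mybpc1 and Mb, and for 1 of the 10, Car7, against 14.7% of all genes with an entry. CAGGTG was found for 3 of the 14, Myl3, Calcr and Csrp3, and for 4 of the 10, Prom1, Car7, Kcne3 and Aqp7, against 19.4%. ATTGTT was found for 2 and 1, against 10.9%, and TATAAA for 2 and 3, against 14.3%. ACCGGAAGT was found for none of the 24 and TGACTCA for 1, Prom1, against 0.892% and 5.16%. The 2 leading genes of each direction with any of these motifs are shown, as examples of what lies in front of a gene of each side, with the motif in capitals on the strand of the gene, so that a motif of the other strand reads as its reverse complement. The windows are Asb5 at chr8:54550081-54550330, plus strand, Myl3 at chr9:110763428-110763677, plus strand, Mmrn1 at chr6:60944067-60944316, plus strand, and Slc26a10 at chr10:127180583-127180832, minus strand.
Asb5: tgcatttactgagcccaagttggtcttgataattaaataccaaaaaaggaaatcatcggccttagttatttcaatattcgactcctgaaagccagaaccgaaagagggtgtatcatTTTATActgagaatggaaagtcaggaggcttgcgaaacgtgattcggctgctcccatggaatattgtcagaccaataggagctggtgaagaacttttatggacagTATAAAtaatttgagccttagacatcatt
Myl3: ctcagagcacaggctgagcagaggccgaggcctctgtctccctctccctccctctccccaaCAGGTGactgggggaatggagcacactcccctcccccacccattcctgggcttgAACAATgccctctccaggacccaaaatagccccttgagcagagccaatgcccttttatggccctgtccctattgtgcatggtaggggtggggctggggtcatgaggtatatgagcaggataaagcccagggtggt
Mmrn1: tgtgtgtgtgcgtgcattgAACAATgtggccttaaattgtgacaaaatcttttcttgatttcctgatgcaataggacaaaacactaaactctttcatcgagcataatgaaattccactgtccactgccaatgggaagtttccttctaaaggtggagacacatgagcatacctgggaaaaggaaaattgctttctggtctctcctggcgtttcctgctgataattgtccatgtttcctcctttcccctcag
Slc26a10: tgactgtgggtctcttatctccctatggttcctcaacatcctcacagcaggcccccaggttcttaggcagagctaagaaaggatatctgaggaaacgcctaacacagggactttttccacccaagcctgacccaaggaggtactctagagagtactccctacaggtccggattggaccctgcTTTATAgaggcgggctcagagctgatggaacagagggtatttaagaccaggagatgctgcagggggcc
Capitals mark TATAAA in Asb5, on both strands, CAGGTG and ATTGTT in Myl3, ATTGTT in Mmrn1 and TATAAA in Slc26a10.

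Endothelial genes were higher in P3 nearly without exception. Of 32 tested, 28 were DEGs higher in P3, none was higher in P1 and the median log2 fold change was -3.82, where 3.67% of all genes were called in that direction and the median of all genes was -0.01. Pecam1, an adhesion molecule of endothelial junctions, was at 496, 1042 and 941 in P1 and 10537, 6067 and 8460.0 in P3 (-3.37 ± 0.33 (SE), adjusted p = 0.00222). Cdh5, the cadherin of those junctions, was at 87.1, 121 and 214 in P1 and 2344, 1887 and 1929 in P3 (-3.95 ± 0.34 (SE), adjusted p = 0.00162). Kdr, the main receptor for VEGF, was at 44.0, 168 and 509 in P1 and 12429, 5900.3 and 8278 in P3 (-5.75 ± 0.80 (SE), adjusted p = 0.00615). P3 replicate 1 was highest and P3 replicate 2 lowest for Pecam1 and Kdr, and P1 replicate 1 was lowest among the P1 libraries for all 3, but no pair of groups overlapped. In bulk libraries, more cells of a type and more RNA per cell cannot be told apart.

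Other endothelial DEGs were Myct1 (-6.59), Robo4 (-5.99), Flt1 (-5.24), Sox18 (-5.07), Egfl7 (-4.90), Cldn5 (-4.60), Tie1 (-4.25), Emcn (-4.24), Nos3 (-3.86) and Vwf (-2.69). The call of Flt1, which P1 replicate 2 carried at 1045 against 33.3 and 208 in the other P1 libraries, was lost in 4 of the 6 fits without 1 library (adjusted p from 0.00961 to 0.092), and that of Robo4 in 3. The defining markers were not at 0 in P1, and the whole list summed to 0.188% to 0.311% of the library total in P1 and 1.15% to 1.81% in P3. In P1 its highest members were Ly6c1, at a mean of 11898, and Tek, at 5244 ± 3965 (SD, n = 3), while Cdh5 averaged 141. Neither Ly6c1 nor Tek was called, and the other members not called were Plvap and Erg. With all 27 libraries in the fit, 8 members were called, and leaving out 1 library gave 24 to 28. The part that endothelial transcripts play in the other differences between P1 and P3 was not tested.

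By difference of mean normalized counts, the 10 leading DEGs higher in P3 were Fabp4, Cav1, Cd36, Ly6e, Aqp1, Sdpr, Hba-a2, Cxcl12, Kdr and Tspan13. Some genes not called differed by more, as Gsn (means of 272101 in P1 and 316957 in P3). The call of Hba-a2 was lost in 4 of the 6 fits without 1 library. Fabp4, a fatty acid binding protein of adipocytes and capillary endothelium, was at 484, 1677 and 1913 in P1 and 30979.7, 17339.5 and 28609 in P3 (-4.42 ± 0.52 (SE), adjusted p = 0.00359). Cd36, a fatty acid transporter, was at 444, 1275 and 1235 in P1 and 23513, 13654 and 20031 in P3 (-4.39 ± 0.43 (SE), adjusted p = 0.00222). P3 replicate 2 was the lowest P3 library for both, and the groups lay far apart. Of 22 tested genes of the adipocyte lineage and lipid uptake, 4 were higher in P3, the other 2 being Fabp5 (-3.14) and Gpihbp1, and none was higher in P1, with a median of -0.02. The water channels Aqp1 (-3.53) and Aqp7 (-6.60) and the caveolar genes Cav1 (-1.97) and Sdpr (-3.14) were DEGs higher in P3, as were the surface genes Ly6e (-2.31) and Tspan13 (-5.30).

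Signalling genes of the Notch pathway, in which a ligand on one cell activates a receptor on its neighbour, were called in 5 of 19 tested, 4 higher in P3 and 1 higher in P1, with a median of -0.09. Of all genes, 3.67% were called higher in P3 and 2.81% higher in P1. Dll4, a ligand of arterial and tip cells of vessels, was at 17.8, 9.61 and 12.5 in P1 and 1692, 1348 and 2059.9 in P3 (-6.91 ± 0.34 (SE), adjusted p = 0.00135). Jag2 was at 39.6, 3.64 and 7.93 in P1 and 398, 314 and 406 in P3 (-4.96 ± 0.77 (SE), adjusted p = 0.00949), and Dll1 at 142, 70.6 and 62.9 in P1 and 619, 739 and 566 in P3 (-2.88 ± 0.36 (SE), adjusted p = 0.00432). Mfng, which modifies the receptors with sugar, was higher in P3 too (-2.11), whereas the receptor Notch2 was higher in P1 (1.65, call lost in 4 of the 6 fits without 1 library). Axon guidance genes, which also steer vessels, had 5 of 45 higher in P3, Robo4 (-5.99), Sema3g (-5.18), Efna1 (-4.07), Nrp1 (-2.81) and Efnb1 (-1.54), and 2 higher in P1, Sema3e (2.58) and Sema3c (2.04). The calls of Sema3g and Sema3e were each lost in 5 of the 6 fits without 1 library.

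Chemokine and cytokine genes were higher in P3 in 5 of 33 tested, beside 3.67% of all genes, and higher in P1 in none. Ccl21a, a chemokine of lymphatic vessels, whose reads may be shared with near-identical copies, was at 95.9, 231 and 181 in P1 and 5699.8, 3660.4 and 4759 in P3 (-4.86 ± 0.35 (SE), adjusted p = 0.00144). Cxcl12, which holds haematopoietic cells in their niche, was at 3778, 2918 and 4145 in P1 and 13143, 11158 and 13038 in P3 (-1.80 ± 0.17 (SE), adjusted p = 0.00221). Kitl, the ligand of Kit, was at 247, 452 and 476 in P1 and 2553, 1944 and 1769.8 in P3 (-2.45 ± 0.30 (SE), adjusted p = 0.00417). Cx3cl1, a membrane-bound chemokine, ranged widely within P3, at 811, 4830.1 and 1689.9, against 148, 125 and 226 in P1 (-3.54 ± 0.61 (SE), adjusted p = 0.0144). The fifth was Cxcl9 (-3.04), whose call was lost without any 1 of the P3 libraries. Cxcl1 spanned 9525 to 27689 in P1 and 6323 to 27190.4 in P3 and was not called.

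Erythroid transcripts were present in both subpopulations and higher in P3 for 10 of 15 tested. Hbb-bs, a beta globin, was at 3062, 2599.8 and 822 in P1 and 11605, 7999 and 6327 in P3 (-2.16 ± 0.50 (SE), adjusted p = 0.0396), and Alas2, the first enzyme of haem synthesis in red cells, at 67.0, 65.4 and 5.13 in P1 and 515, 338 and 357 in P3 (-3.71 ± 0.91 (SE), adjusted p = 0.0482). P1 replicate 3 was lowest for both, and globin genes share reads with near-identical copies. The calls of Hbb-bs and Alas2 were lost in 4 and 5 of the 6 fits without 1 library. The list summed to 0.0339% to 0.110% of the library total in P1 and 0.244% to 0.400% in P3, and the count moved with libraries and settings. Without P3 replicate 1 or P3 replicate 3 it was 0, without P1 replicate 2 it was 3 and without P3 replicate 2 it was 4. It was also 4 by eBayes without trend, 6 with a pseudocount of 0.1 or no filter, and 5 with all 27 libraries. Tfrc, the transferrin receptor, was higher in P1 (1.53, call lost in 5 of the 6 fits). Leukocyte markers were near the floor, with sums of 721 to 1152 normalized counts in P1 and 911 to 1163 in P3, and 1 of 17 tested, Lcp1 (-2.44, call lost in 4 of the 6 fits), was a DEG higher in P3.

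On the P1 side, genes of satellite cells and myoblasts stood out, with 13 of 18 tested higher in P1, none higher in P3 and a median of 3.01, where 2.81% of all genes were called. Pax7, the transcription factor that defines satellite cells (chr4:139737062-139833528, minus strand), was at 428, 242 and 228 in P1 and 3.28, 0.818 and 11.5 in P3 (5.97 ± 0.75 (SE), adjusted p = 0.00429). Myf5, a myogenic factor (chr10:107482908-107486134, minus strand), was at 551, 560.2 and 667 in P1 and 9.29, 5.73 and 14.7 in P3 (5.85 ± 0.42 (SE), adjusted p = 0.00144). Calcr, the calcitonin receptor, which keeps satellite cells quiescent, was at 515, 341 and 297 in P1 and 9.29, 5.66 and 3.83 in P3 (5.76 ± 0.46 (SE), adjusted p = 0.00147). The P1 libraries lay far above all P3 libraries for each of the 3, and the highest P3 value was 14.7. Others were Fgfr4 (5.19), Myod1 (4.99), Cdh15 (4.38), Megf10 (4.02), Myf6 (3.44), Des (2.58), Ncam1 (2.44), Sdc4 (2.02), Itga7 (1.84, call lost in 5 of the 6 fits without 1 library) and Chodl (2.29). Pax3 was at 61.3, 31.3 and 29.6 in P1 and 9.97, 13.9 and 10.9 in P3 and was not called (1.66 ± 0.53 (SE), adjusted p = 0.104). The calls of Pax7 and Myf5 held under all 17 alternatives, and the list had 11 to 13 DEGs without 1 library and 2 with all 27 libraries.

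Genes of the contractile apparatus followed, with 27 of 38 tested higher in P1, 1 higher in P3 and a median of 3.25. Myl3, a myosin light chain of slow fibres, was at 524, 529 and 488 in P1 and 9.20, 4.39 and 5.71 in P3 (6.16 ± 0.40 (SE), adjusted p = 0.00144). Acta1, skeletal muscle actin (chr8:123891769-123894751, minus strand), was at 22648, 26001 and 14187 in P1 and 889, 1730.3 and 757 in P3 (4.27 ± 0.36 (SE), adjusted p = 0.00147). Both slow and fast isoforms were among the DEGs, with Tnni1 (4.75), Tnnc1 (4.59), Tnnt1 (3.59) and Myh7 (2.87) of slow fibres and Tnni2 (4.0), Tnnc2 (3.99), Tnnt3 (4.26) and Myh1 (4.44) of fast fibres. Nebl, of the nebulin family, was the exception at 95.3, 57.5 and 60.7 in P1 and 819.7, 167 and 758 in P3 (-2.75 ± 0.63 (SE), adjusted p = 0.0388), with the call lost in 5 of the 6 fits without 1 library. Of 26 genes of glycolysis, 2 were called, and both are the muscle isoforms: Pgam2 (3.61) and Eno3 (3.37) were higher in P1. The myofibril list summed to 0.609% to 0.908% of the library total in P1 and 0.147% to 0.170% in P3, and the satellite cell list to 0.220% to 0.259% of the library total in P1 and 0.0818% to 0.0866% in P3. With all 27 libraries in the fit, 3 myofibril genes were called. No marker that defines satellite cells was at 0 in P1, and the part of muscle transcripts in the other differences was not tested.

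**Figure D3:**
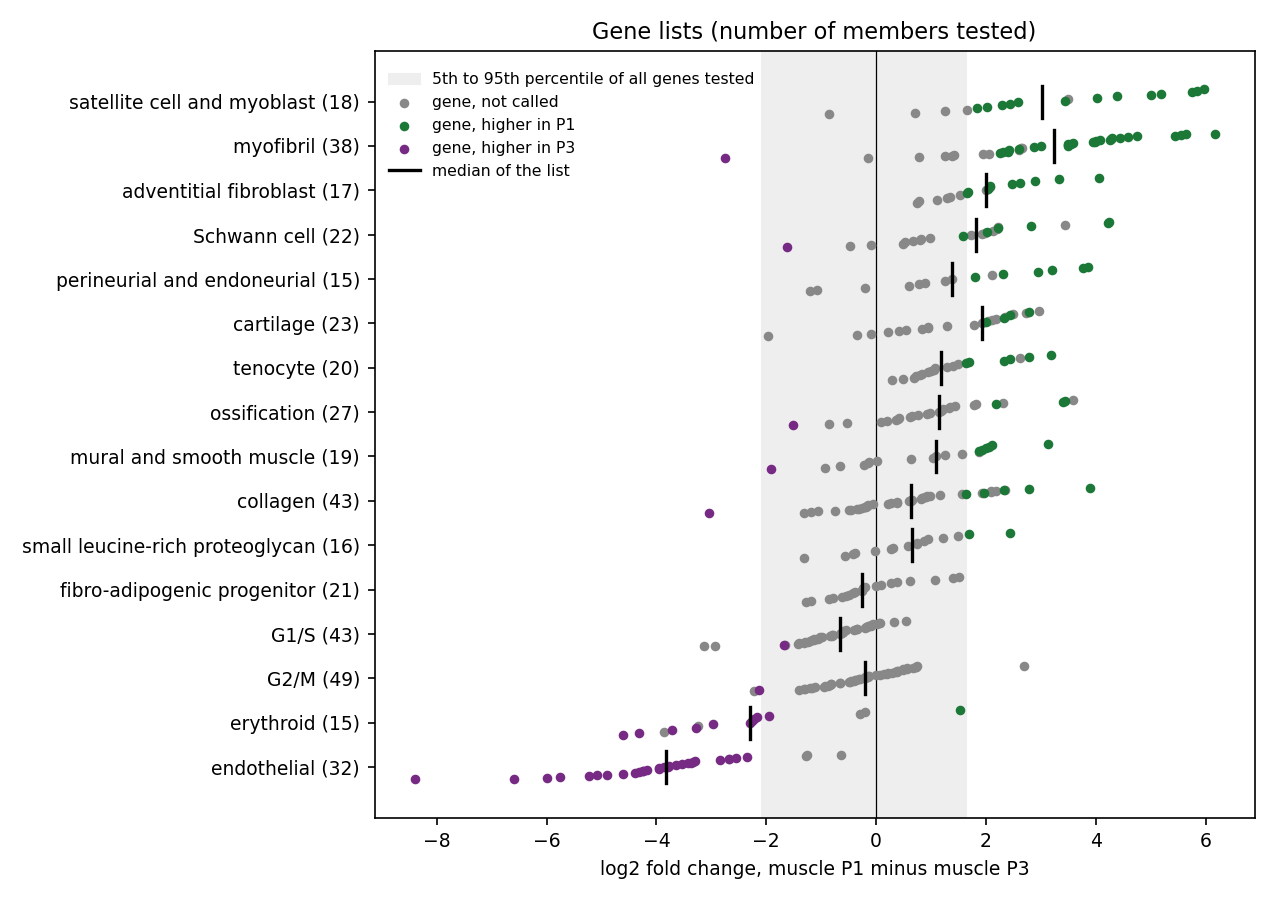
Log2 fold change (P1 minus P3) of every tested member of 16 gene lists, with the median as a black line and the 5th to 95th percentile of all 14075 genes in grey. Satellite cell and myofibril genes lie to the right, at medians of 3.01 and 3.25, endothelial genes to the left, at -3.82, and fibro-adipogenic progenitor genes around 0.

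Genes of the adventitial fibroblast, a cell of the outer sheath of vessels and of fascia, were all above 0 in log2 fold change, and 9 of 17 were DEGs higher in P1 (median 2.0, none higher in P3). Pi16, the peptidase inhibitor that marks this state (chr17:29317680-29330593, plus strand), was at 36859, 33536 and 18827 in P1 and 4045, 6073 and 4035 in P3 (2.62 ± 0.29 (SE), adjusted p = 0.0029). Dpp4, a surface peptidase, was at 3655, 4106 and 2769.7 in P1 and 660.3, 771 and 483 in P3 (2.46 ± 0.24 (SE), adjusted p = 0.00222). Bmp7, a bone morphogenetic protein, was at 296, 1031 and 328 in P1 and 29.6, 44.5 and 68.9 in P3 (3.34 ± 0.56 (SE), adjusted p = 0.0134) with P1 replicate 2 highest. The further DEGs were Dact2 (4.06), Stmn4 (2.90), Efhd1 (2.08), Sema3c (2.04), Igfbp5 (1.68) and Cd55 (1.66). The calls of Stmn4 and Cd55 were lost in 5 and 3 of the 6 fits without 1 library. The count was 6 to 11 without 1 library, 6 with the 9 muscle libraries and 0 with all 27. Genes of the fibro-adipogenic progenitor, by contrast, gave 0 DEGs of 21 tested by limma, 12 with an unadjusted p below 0.05, and a median of -0.26. Pdgfra was at 4734, 3926 and 3576 in P1 and 5164, 5199 and 4213 in P3 (-0.26 ± 0.17 (SE), adjusted p = 0.414), and Ly6a at 17834, 17672 and 12025 in P1 and 25405, 20247 and 23387 in P3 (-0.56 ± 0.19 (SE), adjusted p = 0.127). By limma, 4 of the 21 had an adjusted p below 0.05 under a smaller fold, namely Mfap5 (1.40), Nt5e (1.08), Smoc2 (-1.19) and Lpl (-1.27) (adjusted p = 0.0176, 0.04, 0.00444 and 0.0029). The list made up 4.87% to 6.26% of the library total in P1 and 5.88% to 6.80% in P3. Its highest member was Gsn, at means of 272101 in P1 and 316957 in P3. By their own values, the defining markers Pdgfra and Ly6a were detected in every P1 and P3 library.

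By difference of group means, the 10 leading DEGs higher in P1 were Acta2, Pi16, Fn1, Acta1, Myl9, Tagln, Chad, Errfi1, Axl and Efemp1. Smooth muscle, adventitial, skeletal muscle and matrix genes were thus among them. Some genes not called differed by more, as Col1a1 (means of 98729 in P1 and 51470 in P3) and Fmod (71179 and 24556). The calls of Myl9 and Tagln were lost in 5 and 2 of the 6 fits without 1 library. Axl, a receptor tyrosine kinase, was at 24837, 12260.1 and 8755 in P1 and 4964, 4935 and 4171 in P3 (1.57 ± 0.35 (SE), adjusted p = 0.0376), with the call lost in 5 of the 6 fits without 1 library. Errfi1, a feedback inhibitor of EGF receptors, was at 15228, 20086 and 11698 in P1 and 3340.0, 7757 and 3601 in P3 (1.75 ± 0.35 (SE), adjusted p = 0.0251), with the call lost in 4 of them. Efemp1, a fibulin of elastic fibres, was at 14846, 17031 and 7302 in P1 and 3627, 2998 and 1830.1 in P3 (2.18 ± 0.37 (SE), adjusted p = 0.0143) and lost its call without P1 replicate 2.

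Genes of tendon and cartilage matrix were higher in P1, as 6 of 20 tenocyte genes, 4 of 23 cartilage genes and 5 of 43 collagen genes, with lists that share members. Chad, chondroadherin, a leucine-rich protein of cartilage and tendon, was at 18049, 11802 and 16072 in P1 and 3629.9, 2074 and 2906 in P3 (2.43 ± 0.25 (SE), adjusted p = 0.00242). Col11a1, which nucleates thin fibrils, was at 2529, 3504 and 2178 in P1 and 639.8, 505 and 462 in P3 (2.34 ± 0.24 (SE), adjusted p = 0.00242), and its partner Col11a2 at 1212, 2367 and 1443 in P1 and 275, 268 and 173 in P3 (2.78 ± 0.32 (SE), adjusted p = 0.0034). All 20 tenocyte genes were above 0, with a median of 1.19, and the other DEGs were Cilp2 (3.18), Kera (1.68) and Col12a1 (1.63). The call of Cilp2 was lost in 5 of the 6 fits without 1 library, and the tenocyte count was 4 to 7 without 1 library, 2 with the 9 muscle libraries and 0 with all 27. Of the 2 defining markers, Scx averaged 132 ± 102 in P1 and 20.8 ± 14.6 in P3 (SD, n = 3), and Tnmd 4854 ± 1003 in P1 and 1835 ± 240.1 in P3. Neither was called, at log2 fold changes of 2.62 and 1.39 (adjusted p = 0.08 and 0.00711). Col1a1, of the main fibrillar collagen, was at 0.93 (adjusted p = 0.0451, under the fold required), and Col3a1 at -0.26 (adjusted p = 0.28). Col17a1 was the 1 collagen gene higher in P3 (-3.05), with the call lost in 3 of the 6 fits without 1 library. Fn1, fibronectin, was at 30619.7, 30077 and 25246 in P1 and 9449.9, 7543 and 8632 in P3 (1.75 ± 0.15 (SE), adjusted p = 0.00147), and Fmod, fibromodulin, at 84576, 43268 and 85692 in P1 and 29637, 20332 and 23697 in P3 (1.49 ± 0.29 (SE), adjusted p = 0.0219), just under the fold required.

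Genes of peripheral nerve and its sheath were higher in P1 as well. Cldn1, a tight junction protein of the perineurium, was at 936, 977 and 1287 in P1 and 98.2, 94.2 and 161 in P3 (3.20 ± 0.29 (SE), adjusted p = 0.00193). Of 15 perineurial and endoneurial genes, 6 were higher in P1 and none in P3 (median 1.38), including Krt19 (3.87), Tenm2 (3.77), Lypd2 (2.94), Moxd1 (2.30) and Osr2 (1.80). That count was 3 with the 9 muscle libraries and 0 with all 27. Of 22 Schwann cell genes, 6 were higher in P1, among them Ncmap (2.82), Mbp (2.22) and Kcna1 (4.24), and 1, the adhesion gene L1cam (-1.61), was higher in P3. The Schwann count was 2 without P1 replicate 3 or P3 replicate 1 and 3 without P1 replicate 2 or P3 replicate 3, 3 with no filter, 1 with the 9 muscle libraries and 0 with all 27, and the calls of L1cam and Kcna1 were each lost in 5 of the 6 fits without 1 library. The call of Mbp was lost in 3 of these 6 fits. Of the defining markers, Sox10 averaged 86.4 ± 24.4 in P1 and 10.7 ± 10.6 in P3 (SD, n = 3) and was not called. The Schwann list summed to 0.132% to 0.144% of the library total in P1 and 0.0948% to 0.101% in P3.

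Smooth muscle and pericyte genes were split. Acta2, smooth muscle actin, was at 24056, 54709 and 60522 in P1 and 10888, 8305 and 10936 in P3 (2.11 ± 0.34 (SE), adjusted p = 0.0116), and Myh11, smooth muscle myosin, at 5540.1, 13472 and 13604 in P1 and 2878, 2201 and 2193 in P3 (2.06 ± 0.35 (SE), adjusted p = 0.0141). P1 replicate 1 had the lowest Acta2 and Myh11 of the P1 libraries but stayed above all of P3. The call of Myh11 was lost in 3 of the 6 fits without 1 library. Rgs5, a marker of pericytes, ran the other way at 2332, 1209 and 2017 in P1 and 8046, 5426 and 6941 in P3 (-1.91 ± 0.28 (SE), adjusted p = 0.00727). Of 19 mural genes, 6 were higher in P1, also Cnn1 (3.13), Tagln (2.0), Myocd (1.92) and Mylk (1.87), and Rgs5 alone was higher in P3 (median 1.08). Without P1 replicate 2, P3 replicate 1 or P3 replicate 3 the first count was 3. With the 9 muscle libraries in 1 fit it was 1, and with all 27 it was 0. Cspg4 averaged 1994 ± 474 in P1 and 979.9 ± 254 in P3 (SD, n = 3) and was not called. The list summed to 0.537% to 1.21% of the library total in P1 and 0.307% to 0.396% in P3.

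Of 27 genes of ossification, 3 were higher in P1, where 2.81% of all genes were, and 1 was higher in P3, with 24 of the 27 above 0 and a median of 1.14. Bglap, osteocalcin, was at 4030.4, 13336 and 7243 in P1 and 921, 777 and 452 in P3 (3.41 ± 0.46 (SE), adjusted p = 0.00522), and its near-identical copy Bglap2, with which it can share reads, at log2 fold change 3.44. Smpd3, a sphingomyelinase needed for mineralization, was higher in P1 (2.18, call lost in 4 of the 6 fits without 1 library). Alpl, the alkaline phosphatase of osteoblasts and of some endothelium, was at 1224, 1729 and 1462 in P1 and 4531, 3549.9 and 4537 in P3 (-1.52 ± 0.19 (SE), adjusted p = 0.00444), higher in each P3 library. Its fold fell under 1.5 on the log2 scale without P1 replicate 1, P3 replicate 1 or P3 replicate 3.

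In the endoglin, BMP and TGF-beta pathway, 50 genes were tested, 1 was higher in P1 and 3 were higher in P3, Eng included. Of all genes, 2.81% were called higher in P1 and 3.67% higher in P3, and Eng encodes the CD105 used in the sort. The ligand Bmp7 was the 1 higher in P1. Gdf10, a ligand, was at 1029.5, 720.3 and 1534 in P1 and 2301, 3869 and 3209.8 in P3 (-1.55 ± 0.32 (SE), adjusted p = 0.0267), and Id1, a target induced by BMP signals, at 768, 1158 and 962 in P1 and 3170.4, 3349 and 3016 in P3 (-1.74 ± 0.19 (SE), adjusted p = 0.00296), while the related target Id3 was at 24989, 28223 and 19675 in P1 and 18862, 25098 and 15712 in P3 (0.30 ± 0.21 (SE), adjusted p = 0.447). Id1 kept its call in each fit without 1 library, and Gdf10 lost it in 4 of 6. Among receptors, Acvrl1, which pairs with endoglin, averaged 672 ± 485 in P1 and 2134 ± 537 in P3 (SD, n = 3, log2 fold change -1.86, adjusted p = 0.0558) and Bmpr2 929 ± 280.4 in P1 and 1118 ± 116 in P3 (-0.30, adjusted p = 0.504). The median of the pathway was 0.08.

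In other pathways the counts stand beside 2.81% of all genes called higher in P1 and 3.67% called higher in P3. In the Wnt pathway, 3 of 43 tested were higher in P1, with Sfrp5, a secreted antagonist, at 1123, 1005 and 1726 in P1 and 54.1, 49.1 and 128 in P3 (4.14 ± 0.42 (SE), adjusted p = 0.00242), and 1, the receptor Fzd6 (-2.50), was higher in P3. The call of Fzd6 was lost without any 1 of the P3 libraries. In the Hedgehog pathway 2 of 14 were higher in P1, Cdon (1.56) and Gli2 (1.55). Both calls were lost when values were rescaled to equal totals and in 4 and 5 of the 6 fits without 1 library. Among FGF, IGF and PDGF genes, 4 of 27 were higher in P1, Fgfr4 (5.19), Pdgfc (1.97), Fgfr1 (1.84) and Igfbp5 (1.68), and 3 higher in P3, Pdgfb (-2.95), Igfbp3 (-2.10) and Fgfr3 (-1.67), the last lost in 5 of the 6 fits without 1 library. Fgfr1 read 566, 1784 and 1764 in P3, low in replicate 1, and its call was lost in 6 of the 6 fits without 1 library. That library was also lowest of the 6 for Gas6 (2097, 16148 and 16513 in P3), Igfbp4 (2714, 14465 and 12450.2 in P3) and the transgene entry. Matrix proteases and inhibitors gave 2 of 33 on each side, Adamts16 (3.25) and Adamts20 (3.15) higher in P1 and Timp4 (-3.11) and Mmp3 (-2.04) higher in P3, with the call of Adamts20 lost in 5 of the 6 fits without 1 library. Laminin, nidogen and integrin genes gave 4 of 34 higher in P1, led by Itgb7 at 644, 601 and 1494 in P1 and 32.6, 113 and 32.6 in P3 (4.05 ± 0.59 (SE), adjusted p = 0.00723), and none higher in P3. Complement gave 1 of 16, Cd55, and small leucine-rich proteoglycans 2 of 16, Chad and Kera.

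Transcription factors of limb and mesenchyme were called in 3 of 37 higher in P1, among them Pitx1 (2.59) and Osr2 (1.80), and 1 higher in P3, Tcf21 (-3.84). The calls of Pitx1 and Tcf21 were lost in 4 and 5 of the 6 fits without 1 library. Of 27 Hox genes, 1 was called, beside 6.48% of all genes called in either direction. It was Hoxb7, at 23.6, 56.0 and 19.3 in P1 and 187, 125 and 176 in P3 (-2.40 ± 0.49 (SE), adjusted p = 0.0265), and the call was lost in 5 of the 6 fits without 1 library. Cell cycle genes were called once each, Prim1 (-1.67) among 43 of G1/S and Birc5 (-2.13) among 49 of G2/M, both higher in P3, with calls lost in 5 and 4 of the 6 fits without 1 library. The medians were -0.66 and -0.21, and P3 libraries lay above P1 without overlap in 14 of the 43 G1/S genes, beside 14.8% of all genes. For G2/M that held in 4 of the 49, a smaller share than among all genes, and the reverse in 2. A log2 fold change above 0 was found for 18 of those 49. Pcna was at 1037, 769 and 719 in P1 and 968, 759.9 and 744 in P3, overlapping throughout (0.02 ± 0.22 (SE), adjusted p = 0.966). Among 15 CDK inhibitor and cyclin D genes and 32 immediate early and heat shock genes limma called 0, with 4 and 4 at an unadjusted p below 0.05. Hspa1b was at 130204, 138872 and 91246 in P1 and 142490.0, 190233 and 104612 in P3, with reads it can share with Hspa1a, and replicate 3 was lowest on each side (-0.26 ± 0.25 (SE), adjusted p = 0.581). None of the 4 sex-linked genes tested was called by limma or had an unadjusted p below 0.05, and Ddx3y was present in all 6 libraries, at 1109, 1728 and 1044 in P1 and 1482, 1595 and 1366 in P3.

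Whether the difference between P1 and P3 was the same in the other tissues was tested as (muscle P1 minus muscle P3) minus the same difference in periosteum or bone marrow, over all 27 libraries and 18443 genes. Against periosteum, 46 genes differed, 0.249%, 40 with the muscle difference above (0.217%) and 6 below (0.0325%). This split did not hold throughout, as it was 30 and 28 with only the 12 libraries of both tissues fitted and 46 and 50 without periosteum P3 replicate 3. Against bone marrow, 368 differed, 2%, 175 above (0.949%) and 193 below (1.05%). Within periosteum, 10 of 12457 genes were DEGs higher in P1 (0.0803%) and 41 higher in P3 (0.329%), and within bone marrow 1676 (12.5%) and 1449 (10.8%) of 13414. The split against bone marrow rested on the scaling, as values rescaled to equal totals gave 818 genes, 705 above and 113 below, with the median of all genes moved to 0.58. Esam, an endothelial adhesion gene, was at 11.4, 2.12 and 0.849 in P1 and 8062, 4856 and 5083 in P3 of periosteum, a wider gap than 954, 2002 and 1580.3 in P1 and 10500.1, 6137 and 9336 in P3 of muscle (difference 7.91 ± 1.06 (SE), adjusted p = 0.0007). Tcap, a protein of the sarcomere's Z disc, was higher in muscle P1, at 1466, 1464 and 987 in P1 and 78.2, 92.2 and 59.3 in P3, whereas periosteum had 0, 0.746 and 0 in P1 and 157, 339 and 13.2 in P3 (difference 10.32 ± 1.53 (SE), adjusted p = 0.00144). In periosteum the P3 libraries were thus the higher ones.

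Against bone marrow, the muscle difference in Cd200 was reversed. Bone marrow had 6346, 7515 and 6315 in P1 and 905, 473 and 451 in P3. The transcript was thus higher in the cells gated for CD200 there and lower in them in muscle (difference -5.35 ± 1.39 (SE), adjusted p = 0.0427). CD200 was not a criterion for P3, and the muscle call of Cd200 was lost in 5 of the 6 fits without 1 library. Alpl, chosen for this test after its values were seen, was at 23891, 28847 and 20274 in P1 and 828, 447 and 934 in P3 of bone marrow (difference -6.62 ± 0.76 (SE), adjusted p = 1.96e-05), and at 14501, 25285 and 23237 in P1 and 3531, 7136 and 8152 in P3 of periosteum (difference -3.31 ± 0.76 (SE), adjusted p = 0.0666). Pcna, likewise chosen after its values were seen, was at 331, 565 and 620.4 in P1 and 5098, 8718 and 8351 in P3 of bone marrow (difference 3.90 ± 0.47 (SE), adjusted p = 5.05e-05). For the endothelial markers Pecam1 and Kdr, each P3 library lay above each P1 library in all 3 tissues, and no difference between tissues was detected for them (adjusted p from 0.466 to 1). Pax7 was listed at 0 in all 6 bone marrow libraries and in 5 of the 6 periosteal ones, with 31.8 in periosteum P1 replicate 3.

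**Figure D4:**
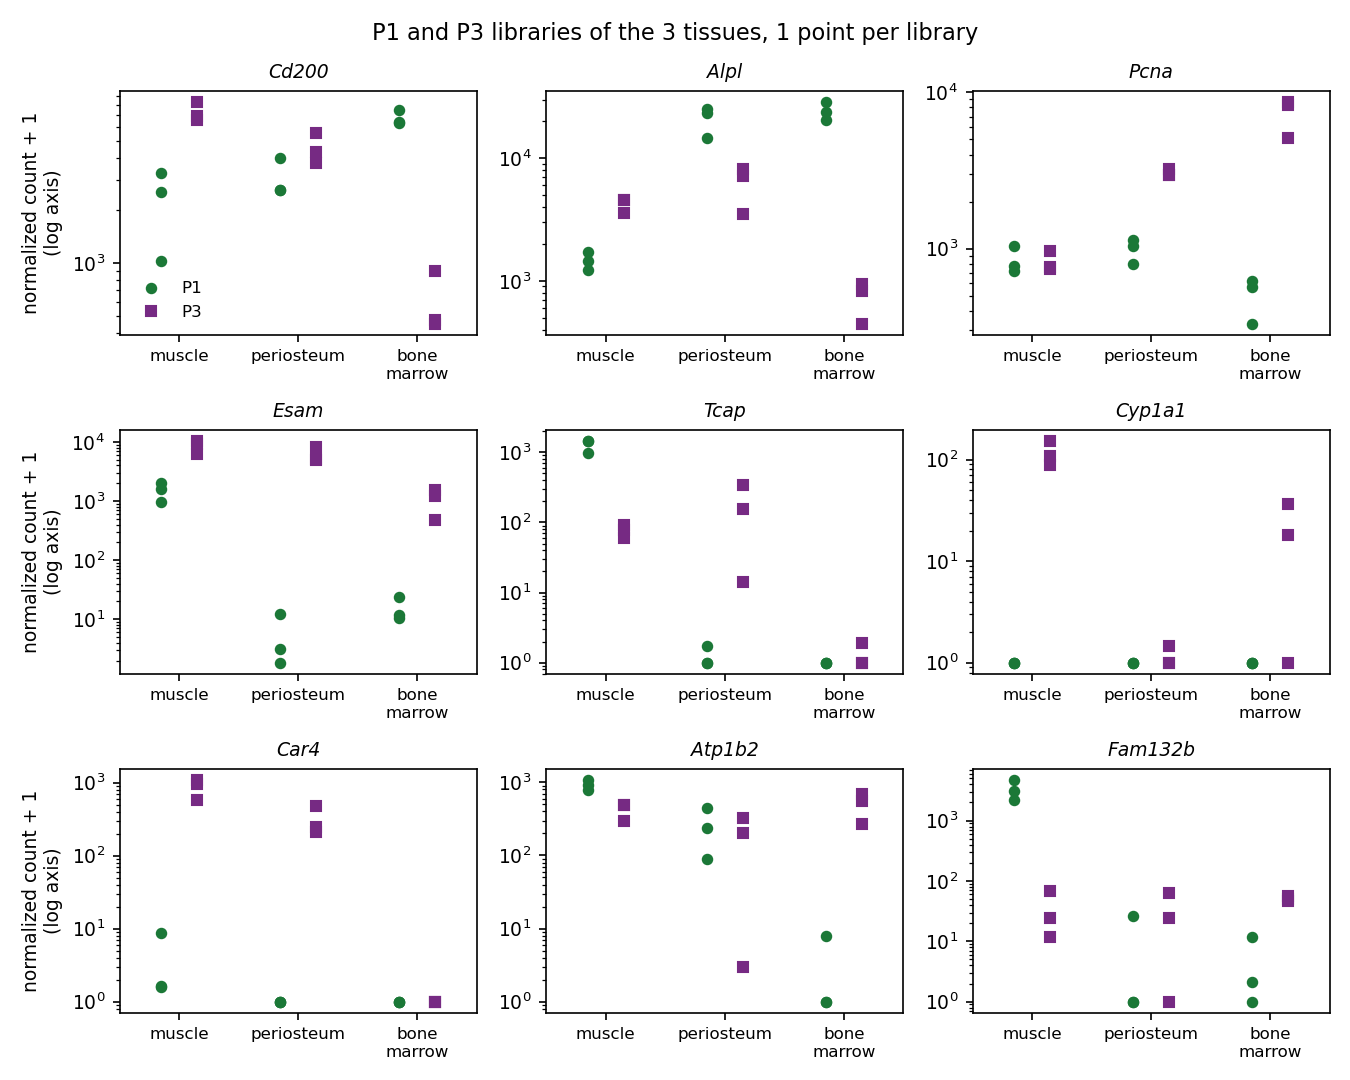
Normalized count plus 1 (log axis, own range per panel) of 9 genes in the P1 (green circles) and P3 (purple squares) libraries of muscle, periosteum and bone marrow, 1 point per library. Cd200 and Alpl are higher in P3 in muscle and higher in P1 in bone marrow, Pcna overlaps in muscle alone, and Fam132b is high in muscle P1 alone.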

How the data were processed

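Sorted muscle P1 and P3 cells were sequenced after SMART-Seq v4 amplification and Nextera XT library preparation. Reads were processed by the authors with Trim Galore, then STAR, then DESeq2, and they deposited a table of normalized counts (a signal, not raw counts) for 30154 entries, 2455 of them at 0 in all 27 libraries. The genome build, annotation and counting tool are not given in the sources used here. The most frequent value of a muscle library, taken as the value of 1 read, was 0.519 to 0.818, but only 17.7% to 40.7% of values were whole multiples of it (tolerance 0.002), so reads were not recovered and no count test was run.

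Entries reaching 10 in 3 or more of the libraries fitted were kept, and log2(value + 1) was fitted with limma 3.58.1 (lmFit, eBayes with trend) in R 4.3.3 on the 6 muscle P1 and P3 libraries, with Benjamini-Hochberg adjustment over the 14075 genes kept. DEGs had an adjusted p below 0.05 and a log2 fold change above 1.5 in size, the thresholds of the study. Differences between tissues used 9 group means over all 27 libraries. Python 3.11.15 with pandas 2.3.3, numpy 2.4.6 and matplotlib 3.10.9 made the tables and plots. Where a symbol had several entries, that with the highest mean was used. Coordinates are those of GENCODE M21 (GRCm38), which holds 29732 of the identifiers. On simulated data of 14075 genes, 36 of 98 genes changed by 2 on the log2 scale and 75 of 102 changed by 4 were called, with 2 other genes. On simulated data for the difference from periosteum, 18443 genes, 56 of 200 genes changed by 5 were called, with 9 others. Both simulations drew independent normal noise on the log2 scale, with the same SD of a gene in all groups. Real periosteal replicates correlated less than those of muscle, so the second result may not carry over to the real test.

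Named genes were the sort markers and the transgene entry, per direction the 15 DEGs with the largest fold (mean of at least 100 in the higher group) and the 10 with the largest difference of means, per gene list up to 4 DEGs a direction and the 2 highest members, and per tissue difference the 5 leading genes a direction. Other genes, Pcna, Pdgfra, Ly6a, Dpp4, Pecam1, Cdh5, Flt1, Pax3 and further list members among them, were chosen after their values were seen. The comparison and the gene lists were chosen with earlier results of these data known. Alternatives were the pseudocount, filter, eBayes setting, scaling, replicate block, libraries fitted, threshold and leaving out each library. Some genes that these rules name are not reported here. Columns of the other groups were used only for the comparison between tissues.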

Additional observations from a re-analysis of the deposited data

Results flagged for a closer look

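The contrast of P1 with P3 differed between muscle and another tissue in the interaction test for 46 genes against periosteum and 368 against bone marrow, and leading genes of each direction are given as the difference of log2 fold changes, muscle minus the other tissue. Where a group is listed at 0 throughout, the difference depends on the pseudocount and is no bound. Against periosteum, the muscle value was above for Nup210 (10.96), Tcap (10.32), Gatm (9.85), Esam (7.91) and Fbxo5 (7.60). Nup210, of the nuclear pore, was at 114, 142 and 68.5 in P1 and 22.4, 12.9 and 32.0 in P3 of muscle and 0, 0 and 0.753 in P1 and 2542, 55.4 and 906 in P3 of periosteum. Gatm, the first enzyme of creatine synthesis, was at 171, 220.3 and 226 in P1 and 70.0, 29.5 and 63.1 in P3 of muscle and 0, 1.45 and 0 in P1 and 220.4, 812 and 171 in P3 of periosteum. The muscle value was below for Lrrc47 (-8.43), Aldh3a2 (-7.64), Cyp1a1 (-6.65), Cdk5rap3 (-3.31) and Pnkd (-2.63). Aldh3a2, an aldehyde dehydrogenase, was at 756, 504 and 550.0 in P1 and 1229, 2944 and 1318 in P3 of muscle and 513, 394 and 261 in P1 and 0, 0.734 and 86.3 in P3 of periosteum, and was called in 3 of 12 fits without 1 library. The same held for Pnkd, Lrrc47 was called in 9, and Cyp1a1 and Cdk5rap3 were called in 6 of 12.

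Against bone marrow, the muscle value was above for Fam132b (11.05), Atp1b2 (9.05), Kcnk5 (8.56) and Adam33 (8.30). Adam33, a membrane protease, was at 2219.7, 1778 and 1351 in P1 and 462, 1029.7 and 404 in P3 of muscle and 4.02, 0 and 40.3 in P1 and 383, 658 and 927 in P3 of bone marrow. Fam132b was at 0, 10.7 and 1.11 in P1 and 49.1, 55.5 and 46.0 in P3 of bone marrow. The muscle value was below for Tmem182 (-9.97), Tdrp (-9.16), Ippk (-8.90), Nos2 (-8.64) and Car4 (-8.23). Tdrp was at 12.2, 39.0 and 24.9 in P1 and 292, 209.5 and 249.9 in P3 of muscle and 1144, 1278 and 866 in P1 and 66.9, 0.874 and 59.4 in P3 of bone marrow. Car4 was listed at 0 in all 6 bone marrow libraries. Atp1b2 and Kcnk5 were called in 2 of 12 fits without 1 library and Ippk in 4, and the other 6 named here in all 12.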

How the results depend on the processing

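Counts are given as DEGs higher in P1 and higher in P3. Against 395 and 517, the fit over all 27 libraries called 25 and 70, that over the 9 muscle libraries 224 and 258, and an adjusted p below 0.01 gave 152 and 244. Leaving out 1 library gave 216 to 338 and 259 to 497, with a count moved by over 1.5 times without P3 replicate 1 (221 and 259), P3 replicate 3 (216 and 274) and P1 replicate 2 (253 and 469). Pseudocounts of 0.1 and 5, no filter, a filter on a mean of 50, eBayes robust or without trend, quantile normalization and equal totals gave 317 to 437 and 434 to 563, and moved neither of these counts by more than 1.5 times, though counts within a list could move further. The replicate number as a block gave 368 and 486. The labels do not say that equal numbers share a mouse, the residuals of same-numbered libraries correlated at 0.04, 0.06 and 0.13, and so the numbers were not taken as a pairing. Of 180 named DEGs, none changed direction, 25 were called under all 17 alternatives, 80 under all but the 27-library fit, and 109 in all 6 fits without 1 library. For the difference from periosteum (46 genes), only the 12 libraries gave 58, a pseudocount of 5 gave 74, equal totals 81, the replicate block 45 and leaving out 1 library 15 to 120, with 28, 29 and 29 without muscle P1 replicate 1, 2 and 3, 15 and 22 without muscle P3 replicate 2 and 3, 97 and 120 without periosteum P1 replicate 2 and 3, and 78 and 96 without periosteum P3 replicate 2 and 3. For that from bone marrow (368 genes), eBayes without trend gave 197, only the 12 libraries 2507, quantile normalization 716, equal totals 818, the block 341 and leaving out 1 library 177 to 480, with 177 without bone marrow P3 replicate 2 or 3, 226 and 185 without bone marrow P1 replicate 1 and 2, 234, 227 and 245 without muscle P1 replicate 1, 2 and 3, and 238, 215 and 199 without muscle P3 replicate 1, 2 and 3. The causes were not tested. Depth in reads is unknown, so no counting error is given, and genes near 0 are the least certain.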

Other observations

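Further gene groups were chosen after the values had been seen, so their counts are descriptions. Among the endothelial genes higher in P3, those of blood capillaries, arteries and lymphatics were all represented. All 8 capillary genes were DEGs higher in P3 (median -5.30), including Cd300lg at 20.4, 42.6 and 132 in P1 and 4657, 2335 and 4284 in P3 and Rgcc at 733, 839 and 640.1 in P1 and 4619, 2679.6 and 3546 in P3. Of 8 arterial genes, 5 were, with Gja5, a connexin of arteries, at 160.1, 67.8 and 74.2 in P1 and 2222, 992 and 1930.2 in P3 (-4.11 ± 0.44 (SE), adjusted p = 0.00263), while Gja4 was at 586, 1351 and 1219.9 in P1 and 1654, 1374 and 1879 in P3 and was not called. Of 7 venous genes, 2 were, Lrg1 (-2.30) and Aplnr (-6.83), while the adhesion gene Selp, at 326, 2242 and 1637 in P1 and 4084, 6589 and 2745 in P3, was not (adjusted p = 0.141). Of 7 lymphatic genes, 4 were, with Flt4, the receptor for VEGF-C, at 11.9, 3.41 and 29.5 in P1 and 858, 501 and 771 in P3 (-5.85 ± 0.69 (SE), adjusted p = 0.00365) and Lyve1 at 31.9, 29.7 and 41.4 in P1 and 375, 290.4 and 322 in P3 (-3.23 ± 0.32 (SE), adjusted p = 0.00222). Prox1, the transcription factor that defines lymphatic vessels, overlapped between the groups at 298, 336 and 167 in P1 and 266, 242 and 81.5 in P3 (adjusted p = 0.569), and Pdpn was at 784, 957 and 561 in P1 and 293, 470.2 and 251 in P3 (adjusted p = 0.0621). Of 12 endothelial transcription factors, 11 were DEGs higher in P3, with Gata2 at 40.2, 26.0 and 47.1 in P1 and 1393, 734 and 1331 in P3 (-4.88 ± 0.37 (SE), adjusted p = 0.00144). Erg, low in P3 at 7.10, 13.9 and 23.6, was the exception.

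Immune-related GTPases were among the further DEGs higher in P3. All 6 tested Gimap genes, GTPases named for immune cells and also found in endothelium, were DEGs higher in P3 (median -3.87), with Gimap6 at 527, 221 and 326 in P1 and 5249, 3032 and 4240.2 in P3 (-3.59 ± 0.35 (SE), adjusted p = 0.00222). Of 14 genes of MHC class I and the interferon response, 5 were DEGs higher in P3, Iigp1 (-3.04), Ifi47 (-2.95), Gbp3 (-2.28), Psmb8 (-1.98) and Igtp (-1.88), and all 14 log2 fold changes were negative (median -1.25). B2m was at 7526, 9251 and 8563 in P1 and 19314, 16968 and 19618 in P3 (-1.14 ± 0.14 (SE), adjusted p = 0.00402), past the adjusted p but under the fold required. Some of these families hold near-identical copies that can share reads. On the P1 side, the 3 respiratory chain isoforms of striated muscle were DEGs, with Cox8b at 312, 442 and 213 in P1 and 15.2, 9.82 and 11.4 in P3 (4.58 ± 0.43 (SE), adjusted p = 0.00199), Cox6a2 at 4.20 and Cox7a1 at 3.34.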
